A study of Mus musculus with 36 samples.

Results

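The genes described here lie on mouse chromosome 11, in a stretch (GRCm38) that precedes Hcrt, the gene of the neuropeptide hypocretin (orexin). The stretch runs from 97 Mb to just past 100 Mb and ends short of Eif1, which starts at position 100319885. Members were chosen by their start in that stretch and by their level, a CPM (a gene's count scaled to the summed gene counts of its library) of at least 1 in at least 3 of 36 libraries. Krt12, Krt10, A830036E02Rik, Gm11940, Ppp1r1b, Neurod2, Thra, Nr1d1 and ribosomal protein genes with symbols starting Rpl were left out by name. Of 202 annotated genes starting there, 51 were kept, 10 were left out by name and 141 stayed under the CPM limit. The 51 stand against 38924 gene identifiers in all, 15492 of which met the same CPM limit. Of the 51 members, 49 are protein coding, Gm11611 is a sense intronic transcript inside Srcin1, and Gm11613 is a processed transcript.

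Poly(A) RNA of hypothalamus, cortex and brainstem was sequenced from 4 genotypes of mice, all labelled C57BL/6, with 3 libraries per genotype and tissue. Hcrt knockout (KO) mice lack a working Hcrt gene, and their reference is the wild type (WT) of the same line. Hcrt-ataxin-3 transgenic mice carry a toxic ataxin-3 fragment, driven by a human orexin gene promoter, that kills the hypocretin neurons, and their reference is the WT of that line. The purpose of the study was to tell what follows from a missing Hcrt gene from what follows when its neurons are gone. No age is given in the labels, and it is not stated whether each library is its own animal. The p-values therefore measure library spread, which may be technical. These are bulk tissues, in which fewer cells of a type and less RNA per cell cannot be told apart.

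Genes that lie close together on a chromosome are usually inherited together, so the alleles of these members travel with the Hcrt locus when a line is bred. The members belong to unrelated families. They include subunits of Mediator (Med1, Med24), which links transcription factors to RNA polymerase, and of the proteasome (Psmb3, Psmd3), which degrades proteins. Erbb2, a receptor tyrosine kinase, lies near Grb7, an adaptor that binds it, with Mien1 between them. Cacnb1 is a subunit of voltage-gated calcium channels and Stac2 is an adaptor protein of such channels. Outside the stretch, Sp2 lies before it and Eif1 and Hap1 lie after it.

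Of the members called below, Stac2 and Plxdc1 had no promoter entry. The promoters of the other 2 are shown, Med1 being higher and Igfbp4 lower in KO brainstem. They are RefSeq promoters (build GRCm38.p6) of 300 bases, from 250 before to 50 after the transcription start, read 5′ to 3′ on the gene's strand. Capitals mark the TATA box letters TATAAA, the CCAAT letters and the GC box letters GGGCGG.
Med1, chr11:98192857-98193156, minus strand: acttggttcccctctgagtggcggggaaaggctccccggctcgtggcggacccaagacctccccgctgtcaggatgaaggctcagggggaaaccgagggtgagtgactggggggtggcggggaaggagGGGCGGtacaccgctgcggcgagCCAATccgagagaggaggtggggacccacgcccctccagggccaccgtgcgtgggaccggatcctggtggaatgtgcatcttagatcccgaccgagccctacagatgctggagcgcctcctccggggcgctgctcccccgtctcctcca
Igfbp4, chr11:99040994-99041293, plus strand: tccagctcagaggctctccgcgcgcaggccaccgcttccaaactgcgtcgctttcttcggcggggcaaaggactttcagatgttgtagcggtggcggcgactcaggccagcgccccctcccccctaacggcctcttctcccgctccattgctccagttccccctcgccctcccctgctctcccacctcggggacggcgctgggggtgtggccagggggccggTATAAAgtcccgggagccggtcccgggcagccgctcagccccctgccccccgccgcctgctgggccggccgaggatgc
The Med1 window held the GC box and CCAAT letters and the Igfbp4 window the TATA letters, on either strand. The Med1 window lies wholly inside the gene as annotated, which starts at 98193293 on the minus strand. Its letters therefore lie downstream of that start, and the RefSeq start used for the window is a different one. The Med1 window was 68.3% G or C with 22 CpG sites, and the Igfbp4 window 71.3% with 27. Promoter entries matched 30 of the 51 members, with 37 promoters between them. GGGCGG was present in 24 of these 37 (64.9%), against 35.7% of all 32851 mouse promoters in the table. CCAAT was in 12 of 37 (32.4%) against 37.4%, TATAAA in 2 of 37 (5.41%) against 13.6%, the E-box CACGTG in 7 of 37 (18.9%) against 7.15%, and the cAMP response element TGACGTCA in 1 of 37 (2.70%) against 1.79%. These counts describe letters in a window and are not binding sites. The members had passed the CPM limit, while the promoters of the whole table were not filtered by level. The shares therefore compare unlike sets, and a share over expressed genes was not counted.

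Gene counts per library ran from 21915540 to 47057537, and the members took 0.222% to 0.370% of them. Summed markers fitted the tissue labels, with the 8 cortex markers at 1759 to 1926 CPM in cortex and at most 273 CPM elsewhere. The hypothalamus markers reached 1046 to 2163 CPM in hypothalamus and at most 16.01 CPM elsewhere, and the brainstem markers 490.4 to 668 CPM in brainstem and at most 2.55 CPM elsewhere. Hcrt itself stood at 1.07 to 1.23 CPM in KO hypothalamus against 53.9 to 86.7 CPM in its WT, and at 2.32 to 2.59 CPM in transgenic hypothalamus against 108 to 205 CPM in its WT. Some libraries stood apart. Hypothalamus libraries 3 of the Hcrt line WT and 1 and 3 of the ataxin-3 line WT carried pituitary transcripts, the 3 most abundant markers summing to 20419, 27514 and 14496 CPM, and transgenic library 1 carried nasal epithelium transcripts at 1626 CPM. Hypothalamus libraries 1 and 3 of the Hcrt line WT also held more cortex transcripts, with cortex markers at 219 and 188 CPM, against 80.9 to 91.9 CPM in KO hypothalamus, 88.8 CPM in WT library 2 and at most 96.1 CPM in the ataxin-3 line. The 5 blood markers were lower in KO than in Hcrt line WT libraries without overlap in every tissue, at 248 to 303 and 345 to 419.6 CPM in hypothalamus, 47.7 to 56.5 and 67.8 to 78.8 CPM in cortex, and 309.9 to 359 and 570.1 to 742 CPM in brainstem. Their part in the KO results was not tested. Brainstem libraries 1 and 2 of the ataxin-3 line WT had 10.1% and 15.2% of reads outside any gene, against 6.38% to 7.33% in the other brainstem libraries. Alignments that were not unique made up 20.7% of hypothalamus KO library 1, against 16.9% to 18.5% in the other hypothalamus libraries. That library held 21.4 CPM of Cdk12 and 59.5 CPM of Psmb3, against 35.6 and 36.4 CPM and 41.4 and 37.6 CPM in KO libraries 2 and 3. The same share was 19.2% in cortex transgenic library 1, against 15.97% to 17.1% in the other cortex libraries.

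In KO brains the members that passed the threshold were Stac2, Plxdc1, Med1 and Igfbp4. Stac2 fell in cortex and brainstem, Plxdc1 fell in cortex, Igfbp4 fell in brainstem and Med1 rose in brainstem. Differences were tested with edgeR's quasi-likelihood test, and a gene was called at a Benjamini-Hochberg adjusted p under 0.05 over all genes tested. Per-library levels are CPM scaled by TMM factors, and differences are log2 with their standard errors (SE). In cortex 2 of 50 members tested were called, against 0.0789% of all genes. In brainstem 3 of 51 were called, against 0.0728% of all genes, and in hypothalamus 0 of 51, against 0.0119% (0 members by DESeq2 and by voom as well). The stretch was chosen with earlier KO results of these data known, so these counts describe the members and do not test them as a group. At an unadjusted p under 0.05 there were 4 members in hypothalamus (all genes 3.89%), 8 in cortex (3.3%) and 9 in brainstem (3.24%).

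Stac2 encodes a member of the STAC family of adaptors of voltage-gated calcium channels (ENSMUSG00000017400, chr11:98036623-98053462, minus strand). In cortex it stood at 91.6, 96.4 and 97.5 CPM in KO libraries, against 133, 134 and 129 CPM in Hcrt line WT libraries. Every KO library lay below every WT library, and the log2 difference was -0.47 (SE 0.06, edgeR adjusted p = 0.00101). In brainstem it stood at 65.4, 70.2 and 79.8 CPM in KO libraries, against 114, 99.9 and 116 CPM in WT libraries. These groups did not overlap either, and the log2 difference was -0.61 (SE 0.08, edgeR adjusted p = 0.00393), or 0.0603 by edgeR adjusted p without KO library 2. In hypothalamus, where Stac2 is scarcer, it stood at 11.9, 16.3 and 15.4 CPM in KO libraries, against 37.7, 19.6 and 25.0 CPM in WT libraries. The KO libraries were again all lower, with a log2 difference of -0.91 (SE 0.22), but the WT libraries spread widely and the edgeR adjusted p was 0.806. WT libraries 1 and 3, the higher ones, are those with more cortex markers, and Stac2 is several times more abundant in cortex. Without both, an alternative chosen after seeing the data that leaves WT library 2 alone, the log2 difference was -0.43 (edgeR adjusted p = 1.00), with that lone library assumed to vary like the others. Over all 15 alternatives it ran from -1.10 to -0.43, and the part of cortex tissue in it was not tested.

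Plxdc1 encodes a plexin domain protein of the cell surface, known as a marker of tumour endothelium (ENSMUSG00000017417, chr11:97923238-97986444, minus strand). In cortex it stood at 26.2, 25.7 and 24.8 CPM in KO libraries, against 35.9, 35.9 and 34.5 CPM in Hcrt line WT libraries. The groups lay apart by more than their whole spread, with a log2 difference of -0.47 (SE 0.05, edgeR adjusted p = 0.000827). In hypothalamus the levels overlapped, at 27.96, 32.8 and 30.3 CPM in KO libraries and 26.0, 33.4 and 27.8 CPM in WT libraries. In brainstem they were 29.3, 26.5 and 18.3 CPM in KO libraries and 26.5, 26.2 and 22.8 CPM in WT libraries, a log2 difference of -0.03 (SE 0.21, edgeR adjusted p = 1.00). The edgeR test of a KO effect that differs between tissues had an adjusted p of 1.00 for Plxdc1 (unadjusted 0.0227), so a difference between tissues did not pass. The 3 endothelium markers summed to 120.4 to 130 CPM in KO cortex and 120 to 131 CPM in WT cortex. The 4 oligodendrocyte markers summed to 2998 to 3266 CPM in KO cortex and 3256 to 3511 CPM in WT cortex, and their part in the cortical calls was not tested.

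Med1 encodes the Mediator subunit that contacts nuclear receptors (ENSMUSG00000018160, chr11:98152154-98193293, minus strand). In brainstem it stood at 56.1, 55.1 and 55.7 CPM in KO libraries, against 44.9, 41.6 and 42.0 CPM in Hcrt line WT libraries. All KO libraries were above all 9 libraries of the other genotypes, and the log2 difference from WT was 0.38 (SE 0.06, edgeR adjusted p = 0.0139). Leaving out any KO library, or WT library 2 or 3, ended the call, with edgeR adjusted p of 0.0925 to 0.167. Cortex levels were 77.9, 81.3 and 78.5 CPM in KO libraries, against 63.9, 67.3 and 62.0 CPM in WT libraries, again without overlap. That log2 difference of 0.30 (SE 0.08) missed the threshold (edgeR adjusted p = 0.602). In hypothalamus the groups overlapped, at 40.5, 51.6 and 53.6 CPM in KO libraries and 47.2, 42.3 and 42.3 CPM in WT libraries. KO library 1 was the lowest of these, and KO libraries 2 and 3 lay above all WT libraries. A predicted gene on the opposite strand, Gm11604, overlaps Med1. Its counted level was 0 CPM in all KO and Hcrt line WT libraries and at most 0.0293 CPM in any library. Whether the counting used strand is not given in the sources used here.

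Igfbp4 encodes a secreted protein that binds insulin-like growth factors (ENSMUSG00000017493, chr11:99041244-99054392, plus strand). In brainstem it stood at 17.1, 17.0 and 17.3 CPM in KO libraries, against 22.2, 29.7 and 23.9 CPM in Hcrt line WT libraries. The KO libraries were the lowest of the 12 brainstem libraries, and the log2 difference was -0.56 (SE 0.10, edgeR adjusted p = 0.0476). That call is narrow. With the replicate number as a block, where same-numbered KO and WT brainstem samples deviated together, the edgeR adjusted p was 0.242, and Igfbp4 was called in 4 of 14 alternative fits. Leaving out any KO library, or WT library 2 or 3, gave an edgeR adjusted p of 0.110 to 0.316. In cortex the KO libraries lay slightly above the WT ones, at 80.9, 79.6 and 80.1 CPM in KO and 77.0, 77.2 and 71.0 CPM in WT (log2 difference 0.10, SE 0.08, edgeR adjusted p = 1.00). In hypothalamus they overlapped, at 17.6, 13.8 and 15.7 CPM in KO libraries and 16.8, 12.9 and 24.0 CPM in WT libraries.

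**Figure D1:**
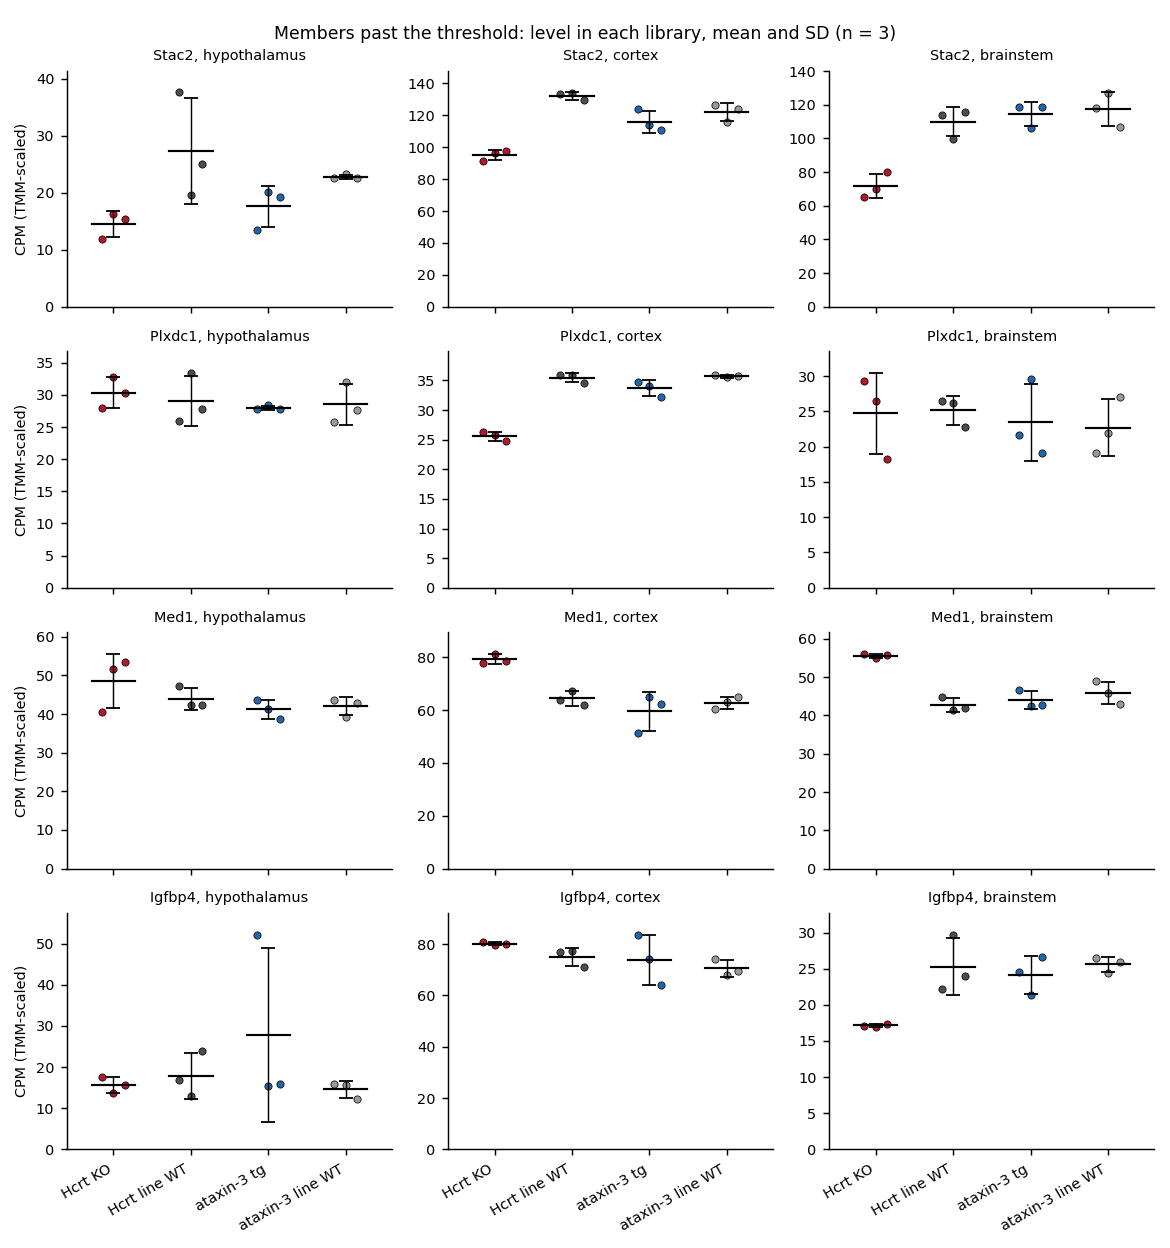
Level of Stac2, Plxdc1, Med1 and Igfbp4 (rows) in hypothalamus, cortex and brainstem (columns), in CPM scaled by TMM factors. Points are libraries, bars the mean and SD of 3; KO libraries of Stac2 in cortex and brainstem, at 65.4 to 97.5 CPM, lie below all other libraries of their tissue, and those of Med1 in brainstem, at 55.1 to 56.1 CPM, lie above them.

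In the ataxin-3 transgenic mice, whose hypocretin neurons are lost but whose Hcrt gene is intact, no member was called. The counts were 0 of 51 in hypothalamus (all genes 0.00597%), 0 of 50 in cortex (all genes 0%) and 0 of 51 in brainstem (all genes 0.00606%). DESeq2 and voom also called 0 members in each tissue. At an unadjusted p under 0.05 there were 0, 4 and 1 members, against 4.16%, 5.09% and 8.35% of all genes. Stac2 stood at 124, 114 and 110.4 CPM in transgenic cortex and 126, 116 and 124 CPM in its WT, and at 119, 106 and 119 CPM in transgenic brainstem and 118, 127 and 107 CPM in its WT. These groups overlapped, with log2 differences of -0.07 (SE 0.06) and -0.03 (SE 0.08). In hypothalamus Stac2 stood at 13.5, 20.1 and 19.3 CPM in transgenic libraries, against 22.6, 23.2 and 22.65 CPM in their WT. Every transgenic library there lay below every WT library, the same direction as in KO hypothalamus, and Stac2 was not called. Plxdc1 in cortex was at 34.8, 34.1 and 32.2 CPM in transgenic libraries and 35.99, 35.5 and 35.7 CPM in their WT, a log2 difference of -0.09 (SE 0.05). These transgenic libraries lay slightly below their WT without overlap, and the edgeR adjusted p was 0.751. Med1 in brainstem was at 46.7, 42.5 and 42.8 CPM in transgenic libraries and 48.9, 45.8 and 43.1 CPM in their WT. Igfbp4 in brainstem was at 24.5, 21.3 and 26.6 CPM in transgenic libraries and 26.5, 24.5 and 25.9 CPM in their WT. Both pairs of groups overlapped.

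The difference between the effects of the models was tested directly, as the KO effect minus the transgenic effect. It was -0.40 (SE 0.08, edgeR adjusted p = 0.264) for Stac2 and -0.39 (SE 0.07, edgeR adjusted p = 0.264) for Plxdc1 in cortex. In brainstem it was -0.58 (SE 0.12, edgeR adjusted p = 0.243) for Stac2, 0.44 (SE 0.09, edgeR adjusted p = 0.171) for Med1 and -0.47 (SE 0.14, edgeR adjusted p = 0.944) for Igfbp4. In hypothalamus the Stac2 difference was -0.54 (SE 0.32, edgeR adjusted p = 0.979). No member passed in any tissue, where 0%, 0.0243% and 0% of all genes did in hypothalamus, cortex and brainstem. By DESeq2, 2 members passed in cortex and 2 in brainstem, Stac2 in both (DESeq2 adjusted p = 0.00366 and 0.0110), with Plxdc1 in cortex and Med1 in brainstem, so the calls of a difference between the models depend on the tool. At an unadjusted p under 0.05 there were 1, 9 and 6 members, against 2.26%, 3.13% and 4.75% of all genes.

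The WT groups of the 2 lines were also compared, as Hcrt line minus ataxin-3 line. No member was called in hypothalamus, cortex or brainstem, and 0% of all genes were called in each. DESeq2 likewise called 0 members, while it called 2, 17 and 254 of all genes. In brainstem the edgeR counts depended on which ataxin-3 line WT libraries were kept. Leaving out library 3 left libraries 1 and 2, those with 10.1% and 15.2% of reads outside any gene. Without library 3 edgeR called 1177 of all genes between the WT groups, 457 in the transgenic comparison and 85 for the difference between the models. Of the members, Mien1 was then called between the WT groups, none in the transgenic comparison and Med1 for the difference. At an unadjusted p under 0.05 there were 0, 2 and 5 members, against 2.29%, 3.26% and 14.9% of all genes. Stac2 differed by 0.11 (SE 0.06, edgeR adjusted p = 1.00) in cortex and by -0.09 (SE 0.08, edgeR adjusted p = 0.645) in brainstem. Without brainstem libraries 1 and 2 of the ataxin-3 line WT no member was called between the WT groups or in the transgenic comparison, and Stac2 and Med1 were the members called in KO brainstem.

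**Figure D2:**
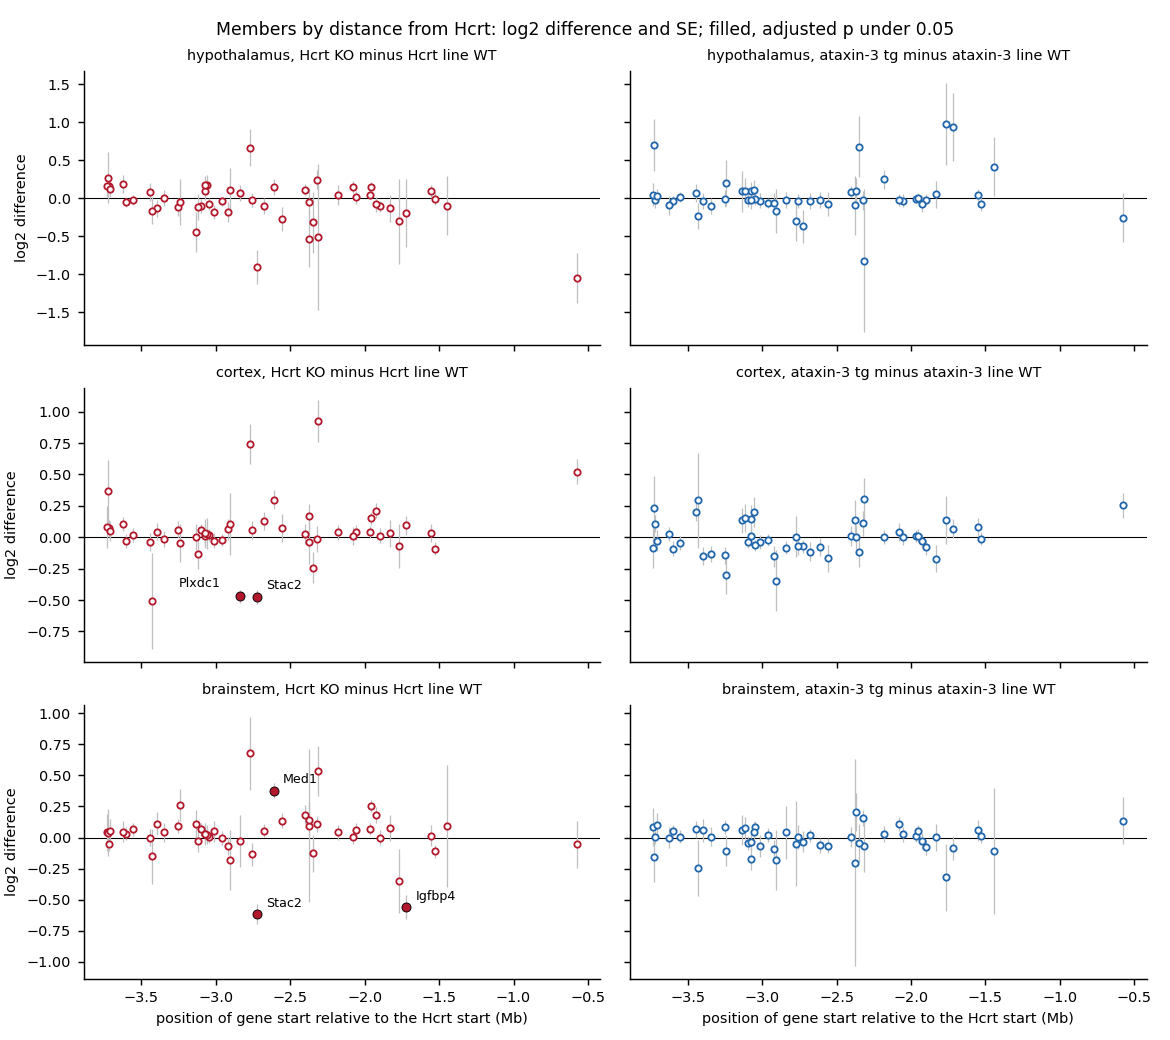
Log2 difference (y axis, with SE) of each member against the position of its start relative to the Hcrt start in Mb (x axis), for KO minus Hcrt line WT (left) and transgenic minus ataxin-3 line WT (right) in each tissue. Filled points passed an adjusted p under 0.05: Stac2 and Plxdc1 in KO cortex, Stac2, Med1 and Igfbp4 in KO brainstem, and no member in the transgenic comparisons.

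Other members lay apart between KO and WT libraries without reaching the threshold. Groups of 3 that did not overlap were counted for 5 of 51 members in hypothalamus (all genes 7.17%), 19 of 50 in cortex (all genes 10.7%) and 13 of 51 in brainstem (all genes 9.84%). In cortex KO libraries were higher for 15 of the 19 and lower for 4, and in brainstem higher for 9 of the 13 and lower for 4. By direction, all genes stood at 5.12% higher and 5.6% lower in cortex, and at 5.2% higher and 4.64% lower in brainstem. In the transgenic comparison the counts were 4 (all genes 9.91%), 7 (9.01%) and 2 (12.1%), and between the WT groups 5 (11.4%), 6 (10.5%) and 3 (15.3%). All 3 KO libraries lay outside all 9 other libraries of the tissue for 2 members in hypothalamus (all genes 0.807%), 9 in cortex (1.37%) and 7 in brainstem (1.38%). Stac2, always lower in KO, and Casc3, always higher in KO, were the only members whose KO and WT groups lay apart in the same direction in all 3 tissues, against 0.193% of all genes. In hypothalamus this rests for Stac2 on a WT group with 2 libraries high in cortex markers. No member did so in the transgenic comparison (all genes 0.045%) or between the WT groups (all genes 0.122%).

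Casc3 encodes a core protein of the exon junction complex, which marks spliced mRNA (ENSMUSG00000078676, chr11:98804905-98833814, plus strand). In brainstem it stood at 74.2, 74.1 and 76.4 CPM in KO libraries, against 64.0, 60.5 and 63.8 CPM in Hcrt line WT libraries, a log2 difference of 0.26 (SE 0.05, edgeR adjusted p = 0.106). Its cortex levels were 93.0, 88.6 and 95.4 CPM in KO libraries, against 83.9, 80.1 and 85.5 CPM in WT libraries, a log2 difference of 0.15 (SE 0.05, edgeR adjusted p = 1.00). In hypothalamus it stood at 101, 115 and 106 CPM in KO libraries, against 95.9, 98.3 and 96.3 CPM in WT libraries, a log2 difference of 0.15 (SE 0.06, edgeR adjusted p = 0.806). It was the only member whose 3 KO libraries lay outside all 9 other libraries in every tissue, against 0.0708% of all genes. The start of Casc3 overlaps the end of Msl1 on the same strand. Msl1, a subunit of a histone acetylating complex, had KO log2 differences of 0.05 (SE 0.06), 0.04 (SE 0.05) and 0.07 (SE 0.05) in hypothalamus, cortex and brainstem.

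Grb7 encodes an adaptor of receptor tyrosine kinases (ENSMUSG00000019312, chr11:98446394-98455373, plus strand). In cortex Grb7 stood at 3.05, 2.06 and 3.01 CPM in KO libraries, against 1.498, 1.53 and 1.32 CPM in Hcrt line WT libraries. The log2 difference was 0.92 (SE 0.17, edgeR adjusted p = 0.0683), and 5 of 13 alternative fits called it. In brainstem it stood at 3.78, 5.29 and 4.23 CPM in KO libraries, against 3.39, 3.04 and 2.72 CPM in WT libraries (log2 difference 0.54, SE 0.20, edgeR adjusted p = 1.00). In hypothalamus Grb7 was highest in the 4 libraries that carried pituitary or nasal transcripts. They held 4.002, 4.25, 5.17 and 2.98 CPM, against 0.462 to 1.56 CPM in the other 8, and the part of that carry-over in the level was not tested. None of the 4 was a KO library. The nearby Erbb2 had a KO log2 difference of -0.24 (SE 0.12, edgeR adjusted p = 1.00) in cortex.

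Arl5c encodes a small GTPase of the ARF-like family and is among the scarcest members, at 1 CPM or more in 18 of 36 files, 8 of them from KO mice (ENSMUSG00000038352, chr11:97989578-97996181, minus strand). In cortex it stood at 2.53, 2.35 and 2.52 CPM in KO libraries, against 1.27, 1.67 and 1.49 CPM in Hcrt line WT libraries (log2 difference 0.74, SE 0.16, edgeR adjusted p = 0.233). In hypothalamus it stood at 1.42, 1.503 and 1.18 CPM in KO libraries, against 0.980, 0.839 and 0.769 CPM in WT libraries (log2 difference 0.66, SE 0.24, edgeR adjusted p = 0.806). In brainstem the groups overlapped, at 1.72, 1.49 and 0.815 CPM in KO libraries and 0.667, 1.13 and 0.726 CPM in WT libraries. Raw counts behind these levels were 27 to 108 per KO library and 24 to 61 per WT library. Arl5c sits between Plxdc1 and Cacnb1 on the same strand, with Stac2 beyond.

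Krt9, a type I keratin known from the skin of palm and sole, had KO differences of opposite sign in cortex and hypothalamus, neither past the threshold (ENSMUSG00000051617, chr11:100186781-100193246, minus strand). In cortex it stood at 7.67, 8.66 and 7.79 CPM in KO libraries, against 5.64, 5.49 and 5.61 CPM in Hcrt line WT libraries (log2 difference 0.52, SE 0.10, edgeR adjusted p = 0.115). In hypothalamus it stood at 1.27, 1.25 and 0.965 CPM in KO libraries, against 2.204, 1.70 and 3.32 CPM in WT libraries (log2 difference -1.05, SE 0.33, edgeR adjusted p = 0.806). In brainstem the levels overlapped, at 2.24, 1.46 and 2.29 CPM in KO libraries and 2.196, 1.80 and 2.23 CPM in WT libraries. Krt9 is most abundant in cortex, and the WT hypothalamus libraries with more cortex markers are 1 and 3. Without them the hypothalamus log2 difference was -0.56 (edgeR adjusted p = 1.00), and the part of cortex tissue in it was not tested. Transgenic cortex held 8.34, 8.09 and 6.84 CPM, and its WT 5.83, 6.57 and 7.05 CPM. The 6 skin markers summed to 3.35 to 4.57 CPM in KO cortex and 3.56 to 4.32 CPM in WT cortex, and to 19.3 to 25.4 CPM in KO hypothalamus and 18.7 to 23.3 CPM in WT hypothalamus.

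**Figure D3:**
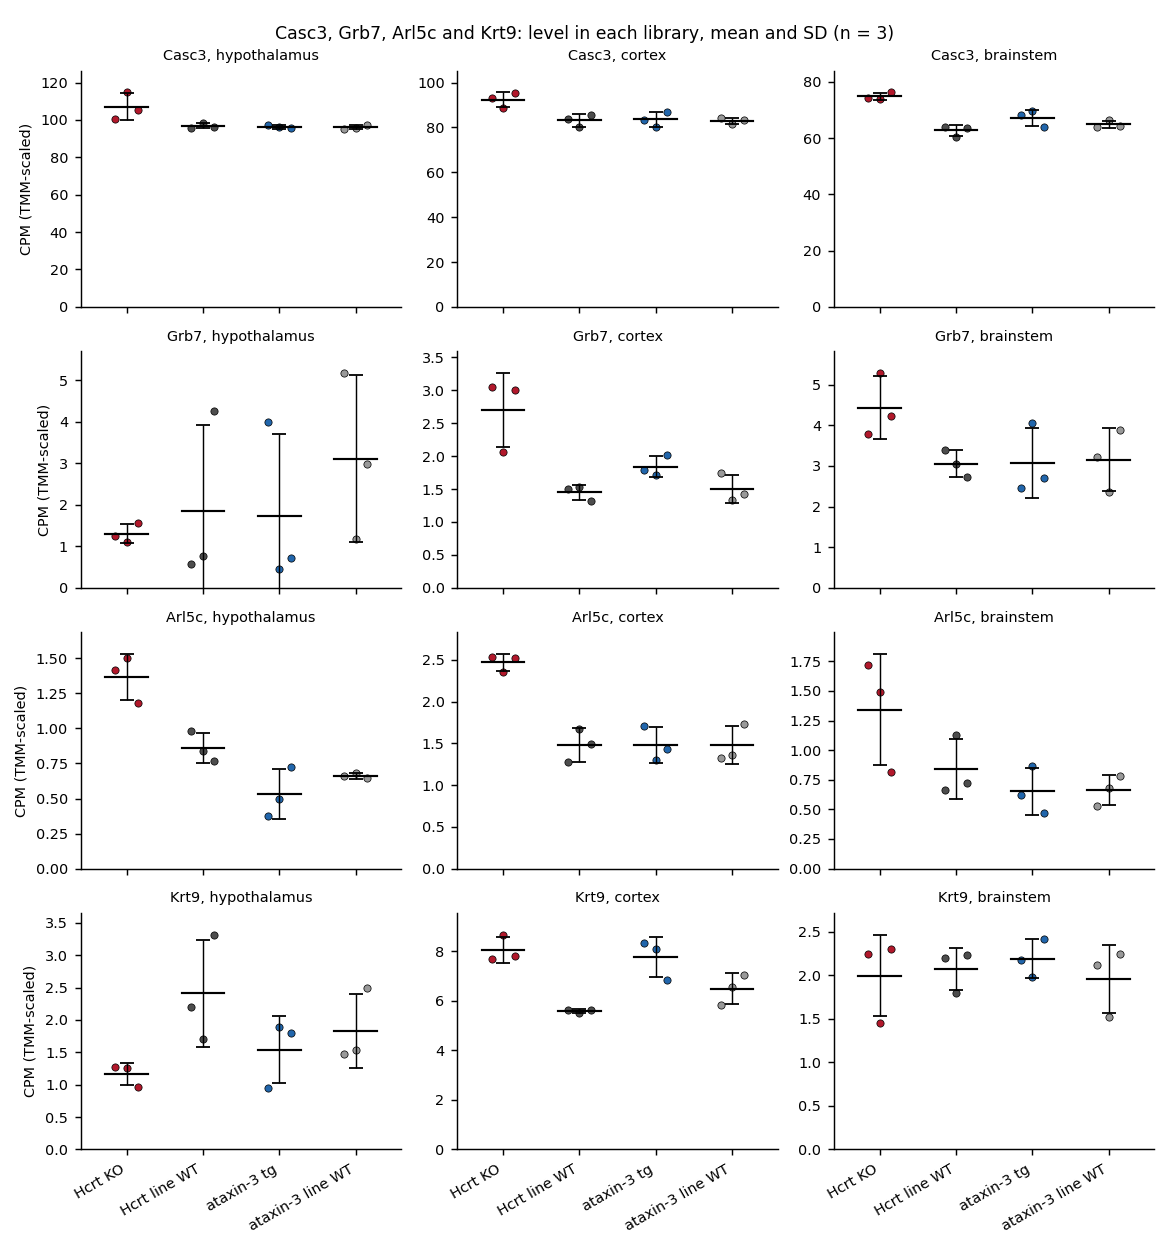
Level of Casc3, Grb7, Arl5c and Krt9 (rows) in hypothalamus, cortex and brainstem (columns), in CPM scaled by TMM factors. Points are libraries, bars the mean and SD of 3; Casc3 in KO libraries lies above every other library of its tissue, at 101 to 115 CPM in hypothalamus, 88.6 to 95.4 CPM in cortex and 74.1 to 76.4 CPM in brainstem.

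The KO effect was also tested for a difference between tissues, in a fit of all 36 libraries. None of the 51 members passed, against 0.00564% of all genes. The smallest p among members was that of Krt9, at 0.000124 with an edgeR adjusted p of 0.276, and DESeq2 called Krt9 alone (adjusted p = 0.00953). An unadjusted p under 0.05 was seen for 3 members, Krt9, Plxdc1 and Rapgefl1, against 3.26% of all genes. Rapgefl1, related to exchange factors of the Rap GTPases, stood at 224, 208 and 235 CPM in KO cortex, against 207, 188 and 182 CPM in WT cortex. Its log2 difference there was 0.21 (SE 0.06, edgeR adjusted p = 1.00), and it was 0.18 (SE 0.07, edgeR adjusted p = 1.00) in brainstem and -0.08 (SE 0.10, edgeR adjusted p = 0.859) in hypothalamus.

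By function the members fall into 7 lists, some genes in more than 1, with 6 members in none. Of the 11 genes on the transcription and chromatin list, which also holds the lipid kinase Pip4k2b and Lrrc46, 10 had a KO log2 difference above 0 in cortex, 10 in brainstem and 6 in hypothalamus, with Med1 in brainstem the one called. In the transgenic comparison 6, 5 and 5 did in the same tissues. Over all members the log2 difference was above 0 for 35 of 50 in cortex (all genes 49.7%), 35 of 51 in brainstem (52.1%) and 21 of 51 in hypothalamus (53.2%). Cdk12, a kinase of RNA polymerase II, had 0.14 (SE 0.06, edgeR adjusted p = 1.00) in brainstem. All 7 genes on the proteasome, ubiquitin and protein import list, Cwc25 included, and all 8 on the lipid and membrane anchor list, Tcap included, lay above 0 in KO brainstem, with no call among them. In transgenic brainstem 6 of these 7 and 6 of these 8 lay above 0, with medians of 0.05 and 0.06. In KO brainstem their median log2 differences were 0.05 and 0.07, and the one with an unadjusted p under 0.05 was Stard3, a cholesterol transfer protein, at 0.19 (SE 0.08, edgeR adjusted p = 1.00). Of the 5 genes on the neuronal channel and synapse list, the keratin Krt222 included, 5 lay below 0 in KO hypothalamus, 3 in cortex and 4 in brainstem. In the transgenic comparison 5, 4 and 2 did. Stac2 was the one called among them, and Cacnb1 had -0.14 (SE 0.09, edgeR adjusted p = 1.00) in brainstem. Of the 12 receptor, adaptor and GTPase genes, Plxdc1 was called in cortex and Igfbp4 in brainstem. The 4 RNA processing and translation genes and the 3 keratins held no call. In hypothalamus Mien1 had 0.24 (SE 0.12), or 0.04 without KO library 1, whose 51.5 CPM stood above 35.5 and 35.9 CPM in the other KO libraries. The splicing factor gene Cwc25 had -0.18 (SE 0.10) there, or -0.06 without the 2 WT libraries high in cortex markers, and in brainstem Top2a, a DNA topoisomerase of dividing cells, had -0.35 (SE 0.26), none past the threshold. Krt222, the keratin with the highest level here, stood at 80.6, 80.3 and 80.4 CPM in KO brainstem, against 90.4, 82.4 and 87.5 CPM in WT brainstem (log2 difference -0.11, SE 0.05, edgeR adjusted p = 1.00). The medians over all members were -0.04 in hypothalamus, 0.03 in cortex and 0.04 in brainstem, against 0.0123, -0.000599 and 0.00412 over all genes.

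Genes called in KO mice were set out along chromosome 11 in windows of the same length as the stretch, counting every tested gene in a window, those left out by name included. Within the stretch, 0 of 74 genes were called in hypothalamus, 5 of 69 in cortex and 4 of 70 in brainstem. Hcrt lies in the next window, up to 103.6 Mb, where 2 of 111, 5 of 107 and 5 of 110 genes were called. In hypothalamus Hcrt itself is among the genes counted in that window. In the window after that, up to 106.9 Mb, the counts were 0 of 48, 2 of 49 and 2 of 46. No other window of chromosome 11 held a call in KO mice. All other chromosomes together held 0 calls in hypothalamus, 1 of 14956 genes in cortex and 1 of 14966 in brainstem. In the window just before the stretch, genes with an unadjusted p under 0.05 made up 0%, 8.93% and 2.86% in hypothalamus, cortex and brainstem. Within the stretch they made up 12.2%, 17.4% and 15.7%, in the window that holds Hcrt 14.4%, 27.1% and 22.7%, in the window after that 14.6%, 12.2% and 13.0%, and on the other chromosomes 3.80%, 2.98% and 2.99%. In the transgenic comparison the same shares within the stretch were 2.70%, 7.25% and 2.86%, and on the other chromosomes 4.19%, 5.12% and 8.45%. Its calls were 1 of 111 genes in the hypothalamus for the window with Hcrt and 1 of 14966 on the other chromosomes in brainstem. The part of linkage to the targeted locus was not tested.

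**Figure D4:**
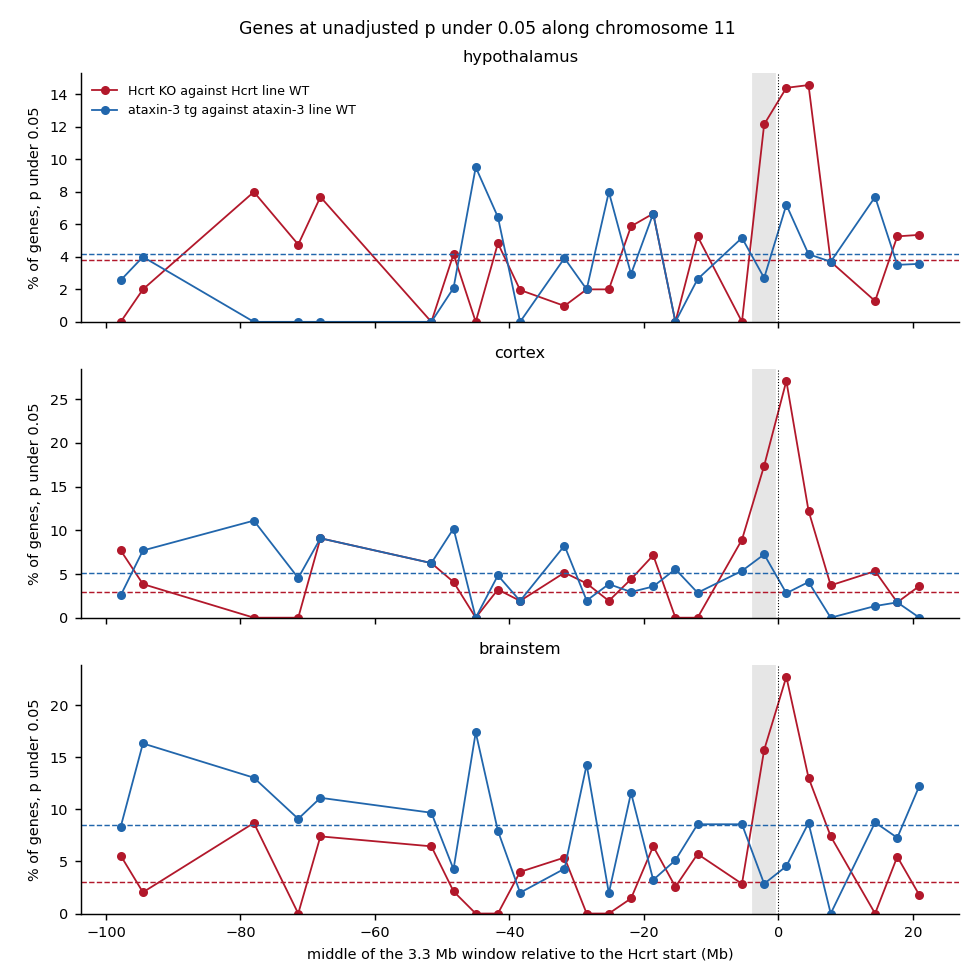
Share of tested genes with an unadjusted p under 0.05 (y axis, percent) in windows along chromosome 11, by distance of the window's middle from the Hcrt start (x axis, Mb), for KO against Hcrt line WT and transgenic against ataxin-3 line WT. Windows with under 20 tested genes are not drawn, dashed lines are all other chromosomes, and the shaded stretch that holds the members had 12.2%, 17.4% and 15.7% in KO hypothalamus, cortex and brainstem.

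Across tissues the members' median absolute log2 difference was 0.54 in hypothalamus against cortex and 0.60 in cortex against brainstem, beside 0.06 between KO and WT cortex. Over all genes these medians were close to those of the members, at 0.499, 0.576 and 0.0531. In the 6 WT libraries of each tissue, 26 members were highest in cortex, 10 in hypothalamus and 15 in brainstem, and all 6 libraries of the highest tissue lay above the other 12 for 20, 8 and 4 of them. These counts were made for the members only, so no share over all genes stands beside them and they show no trait of the stretch. In hypothalamus against cortex 41 of 51 members were called (all genes 75.9%), 12 higher (all genes 38.7%) and 29 lower (all genes 37.2%). In hypothalamus against brainstem 35 were called (all genes 68.2%), and in cortex against brainstem 42 (all genes 78.6%). The median log2 difference of the members was -0.39 in hypothalamus against cortex, -0.07 in hypothalamus against brainstem and 0.20 in cortex against brainstem, against 0.03, 0.03 and -0.02 over all genes.

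Epop, a regulator of Polycomb and Elongin complexes, had unscaled levels of 3.80 ± 1.38, 79.4 ± 4.71 and 5.98 ± 0.879 CPM (SD, n = 6) in hypothalamus, cortex and brainstem. Its log2 difference was -4.56 (SE 0.13) in hypothalamus against cortex and 3.77 (SE 0.13) in cortex against brainstem. Rapgefl1 (62.0, 193 and 41.6 CPM), Mllt6 (118, 229 and 113 CPM), the Polycomb gene Pcgf2 (23.0, 34.7 and 10.2 CPM) and Cacnb1 (94.7, 145 and 43.3 CPM) shared this cortical maximum as means of the 3 tissues in the same order. Gpr179, an orphan receptor known from retinal bipolar cells, ran the other way at 8.83 ± 1.31, 0.333 ± 0.117 and 2.09 ± 0.431 CPM. Its log2 difference was 4.58 (SE 0.19) in hypothalamus against cortex. Ormdl3, a regulator of sphingolipid synthesis, was at 79.0, 43.1 and 44.7 CPM, with a log2 difference of 0.72 (SE 0.06) in hypothalamus against cortex. Lrrc46 (2.27, 0.402 and 1.24 CPM) and Mrpl10, of the mitochondrial ribosome (57.7, 36.3 and 53.7 CPM), were also higher in hypothalamus than in cortex, with log2 differences of 2.32 (SE 0.20) and 0.51 (SE 0.05). Krt222 was highest in brainstem, at 45.4 ± 3.19, 58.4 ± 1.28 and 87.1 ± 6.45 CPM. Lasp1, an actin-binding adaptor, and Casc3 were higher in hypothalamus than in brainstem, with log2 differences of 0.60 (SE 0.04) and 0.48 (SE 0.04). Gm11613 (5.18, 12.3 and 12.5 CPM) and B230217C12Rik (11.5, 18.65 and 22.0 CPM) were lower in hypothalamus than in brainstem. Scrn2 was lower in cortex than in brainstem, with a log2 difference of -1.27 (SE 0.12). Each of these tissue differences with an SE had an edgeR adjusted p under 0.05.

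The 4 members called in KO mice were all highest in WT cortex. Stac2 had means of 25.0 ± 6.43, 126.5 ± 6.65 and 112 ± 5.13 CPM in hypothalamus, cortex and brainstem, and its cortex and brainstem levels differed by 0.20 (SE 0.10, edgeR adjusted p = 0.0765). Its log2 difference in hypothalamus was -2.50 (SE 0.11) against cortex and -2.30 (SE 0.11) against brainstem. Igfbp4 had 16.2 ± 4.24, 72.5 ± 3.82 and 25.1 ± 3.32 CPM, Plxdc1 28.7 ± 3.296, 35.5 ± 0.422 and 23.7 ± 4.07 CPM, and Med1 42.8 ± 2.44, 63.3 ± 2.21 and 43.7 ± 2.68 CPM. Per kilobase of exon the highest members, as the mean of the 3 tissues, were Mien1 (49.4 CPM per kb), Kpnb1 (34.7), Pip4k2b (31.4), Mrpl10 (28.8), Stac2 (27.95) and Msl1 (27.5). Kpnb1 is the importin of nuclear transport and Pip4k2b a phosphoinositide kinase. Members under 1 CPM in some files were Lrrc46, Gpr179, Fbxo47, Arl5c, Tcap, Grb7, Top2a, Krt25 and Krt9. Tcap, a sarcomere protein, reached 1 CPM in cortex libraries only, and Krt25, a hair follicle keratin, in 11 brainstem libraries. By the third-highest CPM, the members nearest the limit were Fbxo47 (1.77), Top2a (2.04) and Arl5c (2.35), and the genes nearest below it were Sp6 (0.996), Krt17 (0.935) and Cdc6 (0.880).

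**Figure D5:**
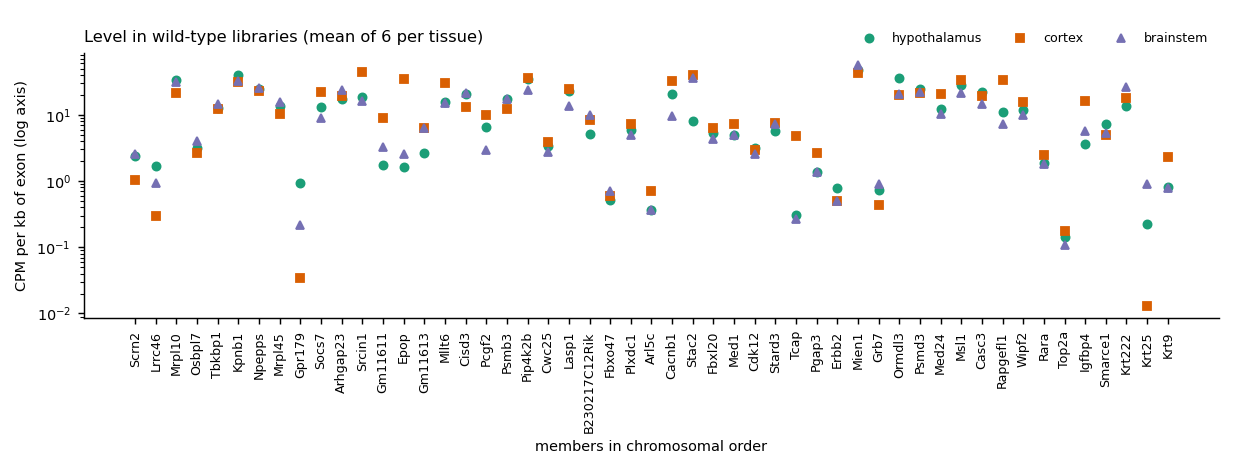
Level of each of the 51 members in WT libraries, in CPM per kb of exon on a log axis (mean of 6 per tissue), in chromosomal order. On this axis the points of a gene stand close together for most members. Among those that spread widely are Epop (1.64, 34.3 and 2.58 CPM per kb in hypothalamus, cortex and brainstem), Gpr179 (0.926, 0.0349 and 0.219), Krt25 (0.227, 0.0128 and 0.908) and Tcap (0.307, 4.72 and 0.267).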

How the data were processed

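The authors deposited raw counts per Ensembl gene for each of 36 libraries, not normalized. Libraries were made with a stranded mRNA kit, per the labels' protocols. The submitters' processing notes name cutadapt 1.2.1, TopHat2 2.0.9, HTSeq 0.5.4p3 and the build GRCm38. For the counting, the sources used here give no annotation release, strand setting or overlap mode, so overlapping genes are less certain. The 5 special lines of each file, 24.7% to 42.0% of its total, were left out.

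Symbols and positions came from GENCODE M21 (GRCm38). Members and lists were chosen with earlier results of these data known. Counts were tested in R 4.3.3 with edgeR 4.0.16 (TMM, default filter by group, robust quasi-likelihood), 12 libraries to a tissue fit (16738, 16479 and 16493 genes in hypothalamus, cortex and brainstem) and 36 to the fit across tissues (17744 genes). SEs are the log2 difference over the square root of F and are approximate. Biological variation between libraries (edgeR's common coefficient) came to 7.35% for cortex, 9.03% for brainstem and 18.0% for hypothalamus. The fits were checked on simulated data whose changes were larger than the KO differences of the members called. That check therefore does not cover differences of their size. Alternatives were DESeq2 1.42.0, limma 3.58.1 voom with quality weights, other scaling and filters, only the groups compared, a replicate block and leaving out libraries.

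Same-numbered samples deviated together in KO and WT brainstem, with correlations of 0.284, 0.135 and 0.522, and each KO library was closest to the WT library of its number. In transgenic and WT hypothalamus they were 0.289, 0.160 and 0.117, but transgenic library 3 was closest to WT library 2. In KO and WT cortex they were 0.122, 0.159 and 0.0385, with KO library 3 closest to WT library 1. The remaining sets held negative values. KO and WT hypothalamus had -0.0495, 0.126 and 0.0739, transgenic and WT cortex 0.163, 0.0383 and -0.147, and transgenic and WT brainstem 0.254, -0.255 and -0.409. Any such pairing comes from the data, not from the labels. Libraries of a group differed beyond counting noise (chi-square per degree of freedom 2.46 to 345 over 36 pairs). Xist was at most 0.196 CPM and Ddx3y at least 62.9 CPM in all libraries.

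Members named were those past the threshold, the 3 of smallest p per direction of each KO comparison, the 6 with the highest level per kilobase, the 4 of smallest p per direction between tissues, and those nearest the CPM limit. Msl1, Cdk12, Stard3, and Tcap and Krt25 were named after their values were seen.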

Additional observations from a re-analysis of the deposited data

Results flagged for a closer look

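Krt9 and Igfbp4 stand out because every KO library lay on one side of the WT libraries in one tissue and on the other side in another. For Krt9 the KO log2 difference was 0.52 in cortex and -1.05 in hypothalamus. The edgeR test of a KO effect that differs between tissues gave an adjusted p of 0.276 (unadjusted 0.000124), with a range of 0.00953 (DESeq2) to 1.00 over its alternatives. Without the 2 WT hypothalamus libraries high in cortex markers the hypothalamus log2 difference was -0.56. For Igfbp4 the KO log2 difference was 0.10 in cortex and -0.56 in brainstem, and the edgeR adjusted p of the same test was 1.00, ranging from 0.401 to 1.00. Single libraries also stood apart in hypothalamus. Transgenic library 1, which carried nasal transcripts, held 52.2 CPM of Igfbp4, 10.8 CPM of Erbb2, 5.93 CPM of Top2a and 5.83 CPM of Lrrc46. The other 2 transgenic libraries held 15.4 and 15.9 CPM of Igfbp4, 2.77 and 3.56 CPM of Erbb2, 1.08 and 1.32 CPM of Top2a, and 1.92 and 2.62 CPM of Lrrc46.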

How the results depend on the processing

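Of 262 alternative counts of members called, over 16 comparisons, 245 stayed within 1.5 times the reported count and 17 did not. In KO cortex, where 2 members were called, DESeq2 called 4, no filter on low counts 4, voom 7 and a fit of only the groups compared 5. Leaving out 1 library gave 2 to 3 there, and Stac2 and Plxdc1 were called in 13 of 13 alternatives each. In KO brainstem leaving out 1 library gave 0 to 3 members, 0 without KO replicate 2, and 1, Stac2, without KO replicate 1, KO replicate 3, WT replicate 2 or WT replicate 3. Across the 14 brainstem alternatives Stac2 was called in 13 (edgeR adjusted p up to 0.0603), Med1 in 9 (up to 0.167) and Igfbp4 in 4 (up to 0.316). For the difference between the models, DESeq2 called 2 members in cortex and 2 in brainstem, voom called 1 in cortex, and leaving out 1 library gave 0 to 1 in each. Without replicate 1 of the transgenic mice Stac2 passed there in cortex, and without replicate 3 of the ataxin-3 line WT Med1 passed in brainstem. Leaving out 1 library also gave 0 to 1 between the brainstem WT groups (Mien1, without replicate 3 of the ataxin-3 line WT) and 0 to 1 for the KO effect across tissues (Krt9, without hypothalamus replicate 2 of the Hcrt line WT), where DESeq2 called 1, Krt9. Over all genes, KO calls were 2 in hypothalamus and 10 by DESeq2, 13 in cortex and 22 by DESeq2, 35 by voom and 26 in the fit of only the groups compared, and 12 in brainstem, with 21 by DESeq2 and 21 in the fit of only the groups compared. Leaving out 1 library gave 7 to 8 over all genes in cortex, 6 to 11 in brainstem and 1 to 5 in hypothalamus, and the replicate block 8, 11 and 1. With the replicate block, paired by number, KO comparisons called 0 members in hypothalamus, 2 in cortex and 2 in brainstem, and apart from Igfbp4 it changed no call of a member in the KO or transgenic comparisons. Only in KO brainstem was each library closest to the WT library of its number, so elsewhere the block may rest on a shared number alone. Of 318 alternative values of 23 single-member results, 291 kept their direction and side of the threshold, 16 fell short of it and 11 passed it, with no reversal. Without the 2 WT hypothalamus libraries high in cortex markers no member was called in KO hypothalamus or for the KO effect across tissues. This alternative, that without carry-over libraries in the test across tissues and that without brainstem ataxin-3 line WT libraries 1 and 2 were chosen after seeing the data. With 3 libraries a group and a coefficient of variation of 18.0% in hypothalamus, smaller differences were less detectable there than in cortex or brainstem.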
